A study of Canis lupus familiaris with 6 samples.

Results

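The genes described here make and regulate the cGMP of photoreceptors: the guanylate cyclase activators GUCA1A, GUCA1B and GUCA1C and the retinal guanylate cyclases GUCY2D and GUCY2F. They were taken by name, and all 5 were present among the 34981 gene names of each library. Transcripts of single cells were counted in 6 libraries from the neural retina of dogs, 3 from retina lying over a graft (over graft) and 3 from graft-free retina (control), 1 of each in the experiments LG5, RC726 and RC724. The dogs carried the normal or wild-type genotype, were immunosuppressed, and had received fragments of retinal organoids under the retina; the organoids were grown from the established human embryonic stem cell line WA09 with a CRX-tdTomato reporter. Punches of 5 mm were cut 3 days after grafting, and both punches of an experiment came from the grafted retina, so the control tissue shared the immunosuppression and the operated eye. No sham-injected punch was analysed here, so the graft and the injection that placed it cannot be told apart, and nothing is said here of the age or number of the dogs, not given in the sources used here.

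Light closes the cGMP-gated channels of rod and cone outer segments, calcium falls, and the calcium-binding activators GCAP1 (GUCA1A), GCAP2 (GUCA1B) and GCAP3 (GUCA1C) then switch on the membrane cyclases RetGC1 (GUCY2D) and RetGC2 (GUCY2F), which remake cGMP and reopen the channels. Variants of GUCY2D and GUCA1A are known causes of inherited cone, cone-rod and early-onset retinal dystrophies in people, and GUCA1C is known from human and fish retina as an activator of cones. The comparisons below ask at what level each gene stood in rods and in cones, and how that level differed over the graft in each experiment.

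Rods and cones were gated in each library by markers, none of them a gene of this set: more than 50% of a barcode's class-marker UMIs (unique molecular identifiers, 1 per captured transcript) from 1 class and at least 3 of its markers, raised for rods to 65% and 4 markers. This gave 5170 to 7127 rods and 203 to 765 cones per library, out of 8552 to 23859 retained barcodes, and libraries held 34768162 to 60755006 UMIs. The LG5 libraries stood apart: rods were 26.6% and 36.8% of their retained barcodes (over graft, control) and 55.9% to 72.1% of those of the other 4 libraries, and the median cone held 1279 and 1959 UMIs in LG5 and 8144 to 14084 in the others. All 16 rod markers were found in gated rods and all 12 cone markers in gated cones of every library. Their summed level was itself lower over the graft in every experiment, at 15597 to 22361 CPM (UMIs scaled to a common total per class and library) in over graft rods against 26641 to 38455 CPM in control rods, and at 11837 to 19293 CPM in over graft cones against 21025 to 27322 CPM in control cones. Some markers of other cells were higher over the graft: the 8 ganglion cell markers summed to 102 to 433 CPM in over graft rods against 18.5 to 73.6 CPM in control rods, without overlap, and to 12.1 to 133 CPM in over graft cones against 7.29 to 47.7 CPM in control cones, higher over the graft in every experiment in both classes. Of these markers, 6 or 7 were found in each rod library over the graft, and SLC17A6 was at 0 in all 3. The amacrine and bipolar markers were also higher over the graft in the rods of every experiment, at 368 to 1256 CPM over the graft against 302 to 1179 CPM in control (amacrine) and at 602 to 804 CPM over the graft against 529 to 727 CPM in control (bipolar), whereas the astrocyte, endothelial and horizontal cell markers were lower over the graft in the rods of every experiment. The part of these markers in the changes below was not tested. Free RNA from broken cells was estimated at 2.63% to 20.7% of rod UMIs and 11.4% to 39.3% of cone UMIs, highest in LG5. Any 2 libraries shared 17 to 102 barcodes, at most 0.677% of the smaller one.

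In control retina the 5 genes divided between the photoreceptor classes: GUCA1A and GUCA1C were higher in cones, and GUCA1B, GUCY2D and GUCY2F were higher in rods. GUCA1A averaged 3557 ± 1308 CPM in cones and 986 ± 627 CPM in rods (SD, n = 3 libraries each), a cone-to-rod log2 difference of 2.12 ± 0.24 (SE; edgeR quasi-likelihood test, Benjamini-Hochberg adjusted p = 0.00151). GUCA1C averaged 160.0 ± 36.1 CPM in cones and 3.97 ± 4.29 CPM in rods, a difference of 5.84 ± 0.62 (edgeR adjusted p = 0.00121). Each of these activators was higher in the cones than in the rods of its own library in all 3 experiments. GUCA1B averaged 62.4 ± 38.9 CPM in cones and 680.4 ± 150.3 CPM in rods, a difference of -3.45 ± 0.23 (edgeR adjusted p = 0.000396). Among the cyclases, GUCY2F averaged 7.60 ± 1.45 CPM in cones and 144 ± 78.1 CPM in rods, -4.07 ± 0.35 (edgeR adjusted p = 0.00072), and GUCY2D 126 ± 87.7 CPM in cones and 232 ± 176 CPM in rods, -0.66 ± 0.13 (edgeR adjusted p = 0.0108). The GUCY2D difference is the smallest of the 5 and missed the threshold of 0.05 without RC726 (-0.70, adjusted p = 0.0724) or without RC724 (-0.62, adjusted p = 0.0956). All 5 genes passed, where 37.8% of the 13788 genes tested passed between these classes, so the passing itself says little of the set.

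**Figure D1:**
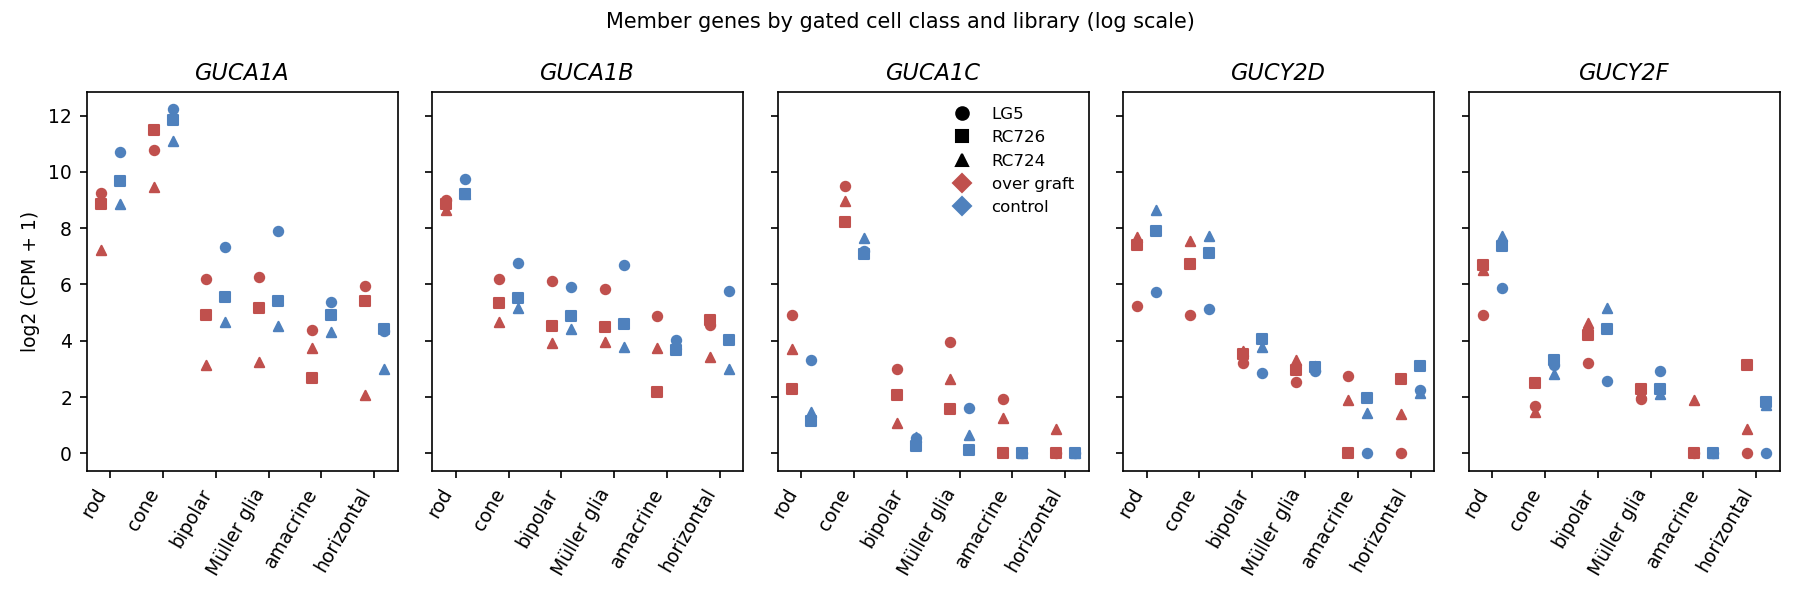
Level of each gene, as log2(CPM + 1), in 6 marker-gated cell classes. Each point is 1 library, with the shape giving the experiment and the colour the group (over graft left of control in each class). GUCA1C stands clear of the other 5 classes in cones and GUCA1B in rods. GUCY2F is highest in the rods of each library, with its lowest rod point (29.4 CPM) below its highest bipolar point (34.9 CPM), and GUCA1A and GUCY2D are higher in both photoreceptor classes than in the other 4 classes of the same library.

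Over the graft GUCA1A fell in rods and in cones, and among the activators its fall was the largest in both classes. In rods it stood at 607 CPM (LG5), 458 CPM (RC726) and 150.2 CPM (RC724) over the graft, against 1682, 809 and 466 CPM in control. The level was lower over the graft in each of the 3 experiments, although the groups overlap because LG5 is high in both. The edgeR log2 change, fitted with the experiment as a block, was -1.32 ± 0.16 (SE, n = 3 pairs; adjusted p = 0.000294), or 0.400 times the control level. In cones GUCA1A stood at 1739.9 CPM (LG5), 2833 CPM (RC726) and 698 CPM (RC724) over the graft, against 4783, 3708 and 2179.9 CPM in control, again lower in every experiment with overlapping groups. The cone change was -1.22 ± 0.21 (edgeR adjusted p = 0.00118). It was smallest in RC726, with a log2 ratio of -0.39 in cones and -0.82 in rods; LG5 gave -1.46 (cones) and -1.47 (rods), and RC724 -1.64 (cones) and -1.63 (rods). The cone call rested on RC724: without that experiment the change was -0.996 with an adjusted p of 0.293. With a cone gate free of cascade genes, which left 23 and 22 over graft cones in LG5 and RC724, it was -0.55 (adjusted p = 0.664).

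The share of cells with a GUCA1A UMI was lower over the graft too. At a fixed depth that share largely follows from the mean level. It does not show separately that fewer cells expressed the gene. With each cell thinned to 600 UMIs, 44.4% (LG5), 75.3% (RC726) and 30.5% (RC724) of over graft cones had a GUCA1A UMI, against 93.3%, 84.8% and 69.3% of control cones. Among rods the thinned shares were 28.1%, 23.2% and 8.12% over the graft, against 62.1%, 35.4% and 20.9% in control. Bipolar cells, which should lack the gene and so show the free RNA, gave 4.33%, 2.15% and 0.533% over the graft, against 8.88%, 3.06% and 1.63% in control, so both photoreceptor classes lay above that background in every library. Before thinning, 58.9%, 95.9% and 89.2% of over graft cones and 99.6%, 98.9% and 97.5% of control cones had a UMI.

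GUCA1C moved the other way and rose over the graft in cones. Its level was 718 CPM (LG5), 299.96 CPM (RC726) and 494 CPM (RC724) in over graft cones, from 642, 1097 and 1393 UMIs, against 146, 133 and 201 CPM in control cones, from 226, 475 and 661 UMIs. Every over graft library lay above every control library. The edgeR log2 change was 1.51 ± 0.17 (SE, n = 3 pairs; adjusted p = 1.18e-05), or 2.86 times the control level, with log2 ratios of 2.29, 1.16 and 1.29 in LG5, RC726 and RC724. Leaving out each experiment in turn gave 1.20 to 1.71, and the cascade-free gate gave 0.96 (adjusted p = 0.000309).

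The share of cones with a GUCA1C UMI was higher over the graft as well, and at a fixed depth it too largely follows from the mean level. At 600 UMIs per cell, 33.4% (LG5), 13.7% (RC726) and 23.0% (RC724) of over graft cones had a GUCA1C UMI, against 8.34%, 6.32% and 11.4% of control cones; the unthinned shares were 54.9%, 62.1% and 88.2% against 24.7%, 53.7% and 70.8%. Bipolar cells, which should lack the gene, gave 0.279%, 0.0994% and 0.126% over the graft, against 0.0204%, 0.00393% and 0.0584% in control. The 1% of cones with the most GUCA1C held between 4.45% and 9.39% of its UMIs per library, so the UMIs were spread over many cells. In the cones, GUCA1C made up 28.4% (LG5), 9.45% (RC726) and 40.6% (RC724) of all UMIs of the 3 activators over the graft, against 2.89%, 3.43% and 8.32% in control. The exact Clopper-Pearson 95% intervals of those shares, which cover counting error only, ran from 26.5% to 30.3%, 8.93% to 10.00% and 39.0% to 42.3% over the graft, and from 2.53% to 3.29%, 3.13% to 3.75% and 7.72% to 8.95% in control. The UMIs of these libraries come from transcript 3' ends and capture may differ between genes, so the shares are compared between libraries and not read as protein or transcript stoichiometry.

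**Figure D2:**
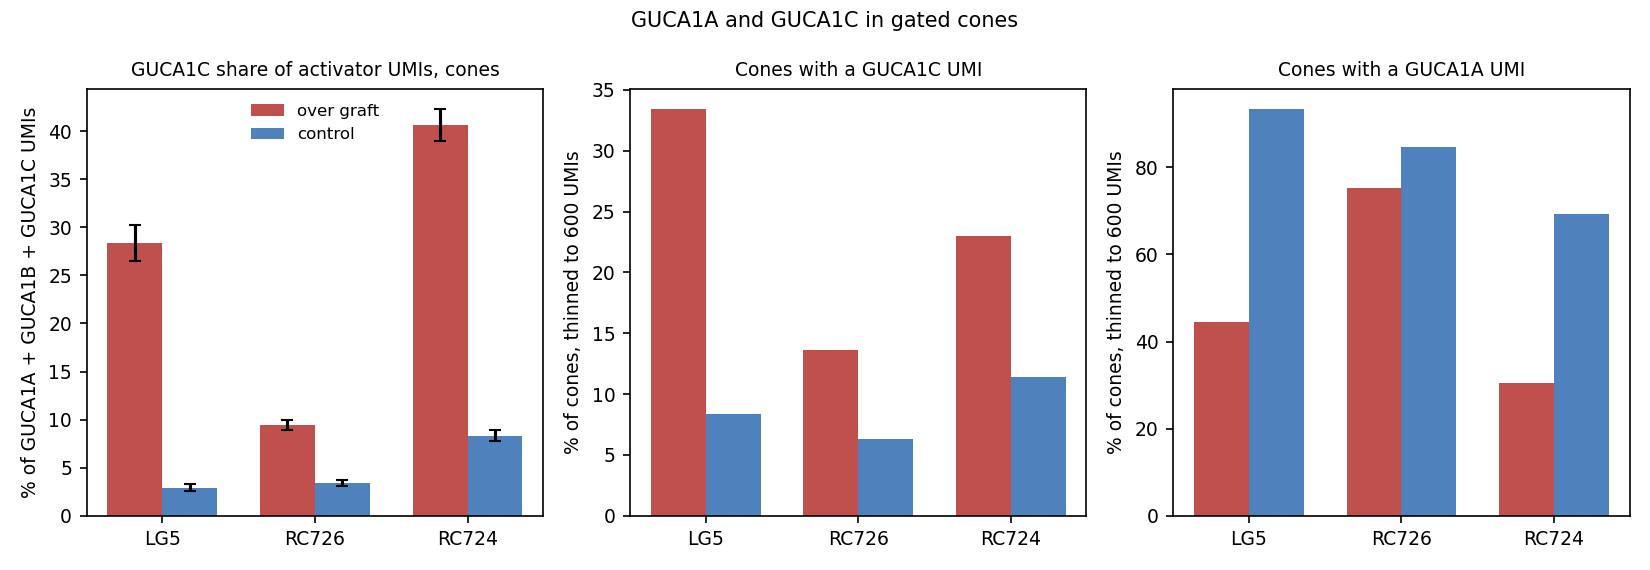
Activators in gated cones, by experiment, with over graft (left bar) and control (right bar). The left panel gives the GUCA1C share of activator UMIs with its 95% interval, highest at 40.6% over the graft in RC724, and the other panels the share of cones with a GUCA1C or a GUCA1A UMI after thinning to 600 UMIs, which is higher over the graft for GUCA1C and lower for GUCA1A in all 3 experiments.

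GUCA1C also rose in rods, where its level was low but above that of Müller glia, which should lack the gene, in all 6 libraries. Rods over the graft held 29.5 CPM (LG5), 3.83 CPM (RC726) and 12.1 CPM (RC724), from 231, 70 and 170 UMIs, against 8.92, 1.20 and 1.81 CPM in control rods, from 82, 19 and 19 UMIs. The gene was higher over the graft in all 3 experiments, with overlapping groups. The edgeR log2 change was 1.98 ± 0.25 (adjusted p = 0.000367), and 2.39 (adjusted p = 0.00402) after subtraction of the estimated free RNA. A GUCA1C UMI was found in 2.11%, 0.815% and 2.11% of over graft rods, against 0.972%, 0.253% and 0.344% of control rods, and at 600 UMIs per cell in 1.03%, 0.252% and 0.671% over the graft, against 0.315%, 0.0821% and 0.110% in control. Müller glia held 14.5, 1.98 and 5.21 CPM over the graft, against 2.05, 0.0888 and 0.558 CPM in control, so GUCA1C was also higher over the graft in cells outside the photoreceptors. The 12 cone markers went the other way in rods, at 66.3 to 275 CPM over the graft against 141 to 650 CPM in control. For each UMI of PDE6H, a cone gene, rods held 0.178, 0.0444 and 0.490 GUCA1C UMIs over the graft, against 0.0233, 0.0104 and 0.0263 in control, and cones 0.0622, 0.0295 and 0.107 over the graft, against 0.00878, 0.0103 and 0.0213 in control. Müller glia gave 0.165, 0.0424 and 0.197 over the graft, against 0.0166, 0.00216 and 0.0126 in control. How much of the GUCA1C in rods or in Müller glia came from free RNA was not tested beyond these values. A rod level above that of the glia does not settle it.

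GUCA1B, the activator most enriched in rods, fell less. Rods held 516 CPM (LG5), 466 CPM (RC726) and 395 CPM (RC724) of it over the graft, against 854, 589 and 598 CPM in control. The groups did not overlap. Its change was -0.57 ± 0.13 (SE, n = 3 pairs; edgeR adjusted p = 0.00913), or 0.674 times the control level, and it missed the threshold without RC724 (-0.57, adjusted p = 0.0847). Because GUCA1A fell further, the share of rod activator UMIs from GUCA1B was 44.8%, 50.2% and 70.9% over the graft, against 33.6%, 42.1% and 56.1% in control. In cones GUCA1B stood at 71.6, 39.9 and 24.1 CPM over the graft, against 107, 44.9 and 35.3 CPM in control, and the change of -0.47 ± 0.16 did not pass (edgeR adjusted p = 0.123, 95% interval -0.80 to -0.13). Müller glia held 56.9, 21.4 and 14.6 CPM over the graft, against 102, 22.9 and 12.8 CPM in control, below the cones of the same library in all 6 libraries, and with the estimated free RNA subtracted the cone change was 0.0103.

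**Figure D3:**
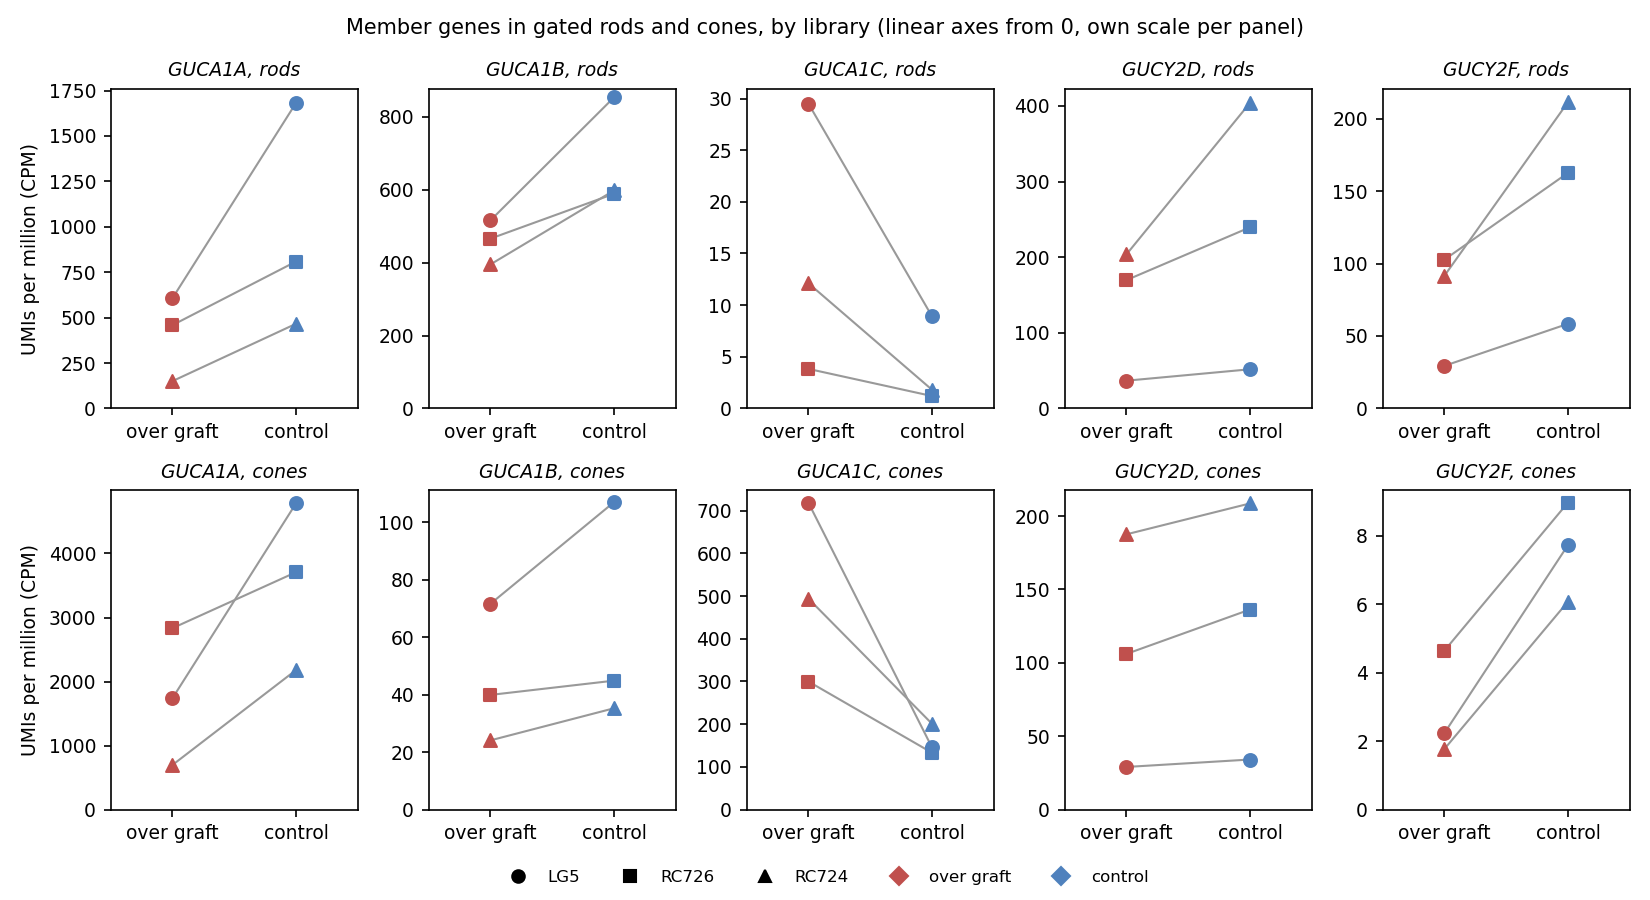
CPM of each gene in gated rods (top) and gated cones (bottom), with over graft left of control. Each point is 1 library and grey lines join the punches of an experiment; axes are linear, start at 0 and differ between panels. GUCA1C is the single gene whose lines go down from over graft to control, and the groups are apart for GUCA1B in rods and for GUCA1C and GUCY2F in cones. GUCY2F in cones rests on 2 to 32 UMIs per library and did not pass the test. The share of all genes tested with groups apart was not counted, so such separation is given as description only.

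Both cyclases fell in rods. GUCY2D stood at 36.7 CPM (LG5), 169.7 CPM (RC726) and 204 CPM (RC724) over the graft, against 51.8, 239.5 and 404 CPM in control, lower over the graft in each experiment with overlapping groups. Its change was -0.68 ± 0.12 (SE, n = 3 pairs; edgeR adjusted p = 0.00239), or 0.623 times the control level. GUCY2F stood at 29.4 CPM (LG5), 103 CPM (RC726) and 91.5 CPM (RC724) over the graft, against 58.4, 163 and 211 CPM in control, also lower in each experiment with overlapping groups. Its change was -0.96 ± 0.12 (edgeR adjusted p = 0.000349), or 0.513 times the control level. Both cyclases were lowest in LG5, whose libraries were processed with another Cell Ranger version, and the part of that difference was not tested; their levels are compared within experiments. GUCY2D made up 55.5%, 62.3% and 69.0% of the cyclase UMIs of rods over the graft (LG5, RC726, RC724), against 47.0%, 59.6% and 65.7% in control. At 600 UMIs per cell, 2.22%, 7.98% and 10.5% of over graft rods and 3.14%, 11.2% and 19.9% of control rods had a GUCY2D UMI, against 0.456%, 0.544% and 0.701% of over graft bipolar cells and 0.332%, 0.846% and 0.740% of control bipolar cells.

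Neither cyclase passed the test in cones. GUCY2D in cones stood at 29.1 CPM (LG5), 106 CPM (RC726) and 188 CPM (RC724) over the graft, against 34.2, 136 and 209 CPM in control, a change of -0.28 ± 0.14 (edgeR adjusted p = 0.389, 95% interval -0.59 to 0.02). It was lower in all 3 experiments. The interval reaches from -0.59, beyond the change of GUCA1B in rods (-0.57), to just above no change. GUCY2F was at 2.24, 4.65 and 1.77 CPM over the graft, from 2, 17 and 5 UMIs, against 7.73, 8.98 and 6.08 CPM in control, from 12, 32 and 20 UMIs. The groups did not overlap, but the change of -1.34 ± 0.40 did not pass (edgeR adjusted p = 0.0624). Müller glia, which should lack the gene, held 2.83, 3.90 and 3.46 CPM over the graft, against 6.63, 3.91 and 3.27 CPM in control. The cone level was below that of the glia in the over graft libraries of LG5 and RC724 and above it in the other 4 libraries. Bipolar cells held 8.21, 17.4 and 23.8 CPM over the graft, against 4.90, 20.4 and 34.9 CPM in control. The cone level was below that of bipolar cells in every library but the LG5 control.

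**Figure D4:**
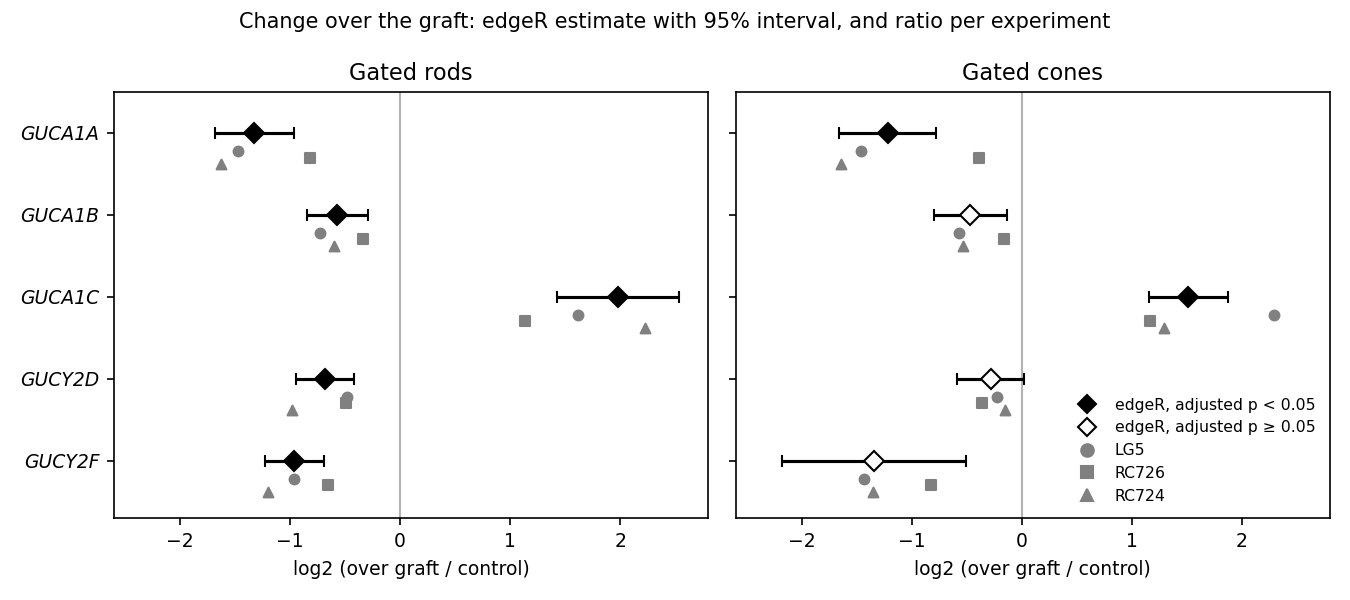
Change over the graft as log2(over graft / control) in gated rods (left) and cones (right). Diamonds are edgeR estimates with their 95% intervals, filled where the adjusted p is under 0.05, and grey symbols are the ratios of CPM + 1 in the 3 experiments. GUCA1C lies above 0 in both classes, at 1.98 and 1.51, and the other 4 genes lie below 0.

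In rods 4 of the 5 genes fell and 1 rose, where 10.0% of the 15582 genes tested fell, 10.9% rose and 20.9% passed in all. The median change of the 5 in rods was -0.68, beside 0.00 over all genes tested there. In cones 1 fell and 1 rose, where 1.60% of 11876 genes fell, 2.92% rose and 4.52% passed in all. Their median change in cones was -0.47, beside 0.02 over all genes tested. The summed markers of rods and cones, given above, were also lower over the graft and those of ganglion cells higher, and what part that plays in these changes was not tested.

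The cone and rod changes were then set against each other in 1 fit of both classes, in which 6.04% of 15084 genes passed. GUCY2D alone of the 5 differed, with a cone change above the rod change by 0.50 ± 0.15 (SE; edgeR adjusted p = 0.0304). Its log2 ratio in LG5 was -0.22 in cones, from 26 UMIs over the graft and 53 in control, against -0.49 in rods. RC726 gave -0.36 in cones, against -0.49 in rods, and RC724 gave -0.15 in cones, against -0.99 in rods. The difference was 0.088 (adjusted p = 0.936) without RC724, and it missed the threshold with DESeq2 (0.43, adjusted p = 0.451). For GUCA1A the cone change lay 0.17 above the rod change (95% interval -0.10 to 0.44, edgeR adjusted p = 0.571), which did not pass. GUCA1B differed by 0.15 (interval -0.17 to 0.47, adjusted p = 0.707 by edgeR) and GUCY2F by -0.39 (interval -1.07 to 0.30, adjusted p = 0.634 by edgeR), and neither passed. For GUCA1C the difference was -0.24 (interval -0.69 to 0.21, edgeR adjusted p = 0.646), and it depended on LG5: without that experiment it was -1.04 (adjusted p = 0.00549), a smaller rise in cones than in rods.

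Over all retained barcodes, of every cell class, GUCA1A stood at 226, 388 and 77.0 CPM over the graft (LG5, RC726, RC724), against 941, 704 and 257 CPM in control. GUCA1C stood at 43.1, 24.2 and 29.8 CPM over the graft, against 13.1, 13.2 and 13.99 CPM in control, without overlap. GUCA1A and GUCA1B are next to each other in the RefSeq annotation of the dog assembly UU_Cfam_GSD_1.0, GUCA1A between GUCA1ANB and GUCA1B, and since the sources used here do not say how strand was counted, reads at their ends could be shared between them.

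Most of the other cascade genes of rods fell in rods too. Of the list, 8 of the 9 rod cascade and channel genes passed as lower and none as higher, where 10.0% of all genes tested in rods were lower, and their median log2 change was -0.90, beside 0.00 over all genes tested. PDE6B, one of the catalytic proteins of the rod phosphodiesterase that breaks down cGMP, averaged 353 CPM over the graft, against 671 CPM in control, -0.94 ± 0.13 (edgeR adjusted p = 0.000591). SLC24A1, the exchanger that clears calcium from the rod outer segment, changed by -1.24, GNB1, a transducin subunit, by -0.97, and the channel subunits CNGA1 and CNGB1 by -0.80 and -0.67. GNAT1, the rod transducin alpha subunit, was the gene of the list that did not pass (-0.39, edgeR adjusted p = 0.0776). Of these 9 genes, 8 are also gate markers, and none of the activators or cyclases is.

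Of the 9 cone cascade and channel genes, 1 fell in cones and none rose, where 1.60% of all genes tested in cones fell and 2.92% rose, and their median was -0.32, beside 0.02 over all genes tested. GNAT2, the cone transducin alpha subunit, fell to 1344 CPM over the graft, against 2041 CPM in control (-0.64 ± 0.17, edgeR adjusted p = 0.0284). PDE6H, the inhibitory subunit of the cone phosphodiesterase, changed by -0.69 (adjusted p = 0.0583 by edgeR), the channel subunit CNGA3 by -0.21 (edgeR adjusted p = 0.612) and PDE6C, the catalytic subunit, by 0.05 (edgeR adjusted p = 0.933), and none of these passed. Of these 9 genes, 7 are gate markers. In the same cones 6 of 9 rod cascade genes fell, among them SLC24A1 (-1.34), CNGA1 (-0.73), PDE6B (-0.73) and GNGT1 (-0.90), and their level in cones includes the free rod RNA estimated above. In rods 3 of 8 tested cone cascade genes fell and 1 rose, beside 10.0% and 10.9% of all genes tested there: PDE6H by -1.03, GNAT2 by -0.70 and GNGT2 by -0.59, and GNB3, a G protein beta subunit of cones and ON bipolar cells, by 0.96. The 3 that fell are gate markers of cones. PDE6H averaged 92.2 CPM in over graft rods, beside 8784 CPM in over graft cones. How much of the level of these cone genes in rods was free RNA was not tested.

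Some shutoff and transport genes fell as well. Of the 8 shutoff genes, 4 fell in rods (median -0.45) and 3 in cones (median -0.48), and none rose, where 10.0% of all genes tested fell in rods (median 0.00) and 1.60% in cones (median 0.02). Among these 8 genes 3 are gate markers, SAG of rods and ARR3 and GRK7 of cones. Cone arrestin ARR3 changed by -1.34 ± 0.21 in cones (edgeR adjusted p = 0.000369), the opsin kinase GRK7 by -0.67 in cones, its rod counterpart GRK1 by -0.46 in rods, and GNB5, which holds the transducin-inactivating complex, by -0.78 in rods and -0.55 in cones. RGS9, the transducin-inactivating protein itself, changed by -0.51 in rods, and ARR3 by -1.62 there. In rods ARR3 averaged 12.4 CPM over the graft, against 42.8 CPM in control, and in cones 1904 CPM, against 4259 CPM. How much of the ARR3 in rods was free RNA was not tested. Recoverin, RCVRN, a calcium sensor that restrains opsin kinase, stood in rods at 4619 CPM over the graft, against 4773 CPM in control, a change of -0.03 (edgeR adjusted p = 0.936). Of the 7 transport genes tested, 4 fell in rods (median -0.42) and 1 in cones (median -0.23), beside the same 10.0% and 1.60% of all genes. RD3, which carries the retinal cyclases to the outer segment and holds them inactive on the way, stood at 49.7 CPM in over graft rods and 85.2 CPM in control rods, -0.86 ± 0.14 (edgeR adjusted p = 0.00145). ARL3, a small GTPase that releases lipid-modified cargo at the cilium, changed by -0.63 in rods and -0.69 in cones, PDE6D, a carrier of such cargo, by -0.42 in rods, and TULP1, a photoreceptor trafficking protein, by -0.53 in rods.

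Guanylate cyclases and calcium sensors with roles outside phototransduction were counted in the same way. None of the 5 other guanylate cyclases tested in rods passed (median -0.29), nor did any of the 4 tested in cones (median -0.62). Of all genes tested, 20.9% passed in rods and 4.52% in cones. With so few cyclases these counts are not read as a result about the list. The highest of these genes in rods was GUCY1B1, a subunit of the soluble cyclase, with a mean of 19.6 CPM over the graft, against 14.1 CPM in control, most of it from LG5 (50.8 CPM over the graft, against 36.6 CPM in control). Of 9 other calcium sensors tested in rods, the calmodulin genes CALM2 and CALM3 rose, by 0.53 and 0.42, CABP4, a regulator of synaptic calcium channels, and HPCAL1, a neuronal calcium sensor, fell by 0.61 and 0.48 on the log2 scale, and the list's median was -0.04. That is 2 of 9 in each direction, beside 10.9% of all genes tested in rods that rose and 10.0% that fell, and at this list size the counts are not read as a result about the list. In cones none of the 9 tested passed (median 0.16). Among other cGMP targets and phosphodiesterases none of 6 passed in rods (median -0.51) and 1 of 4 in cones, PDE1C, a calmodulin-dependent phosphodiesterase, at 960.0 CPM over the graft, against 1412 CPM in control (-0.67 ± 0.18, edgeR adjusted p = 0.0332; list median 0.07), where 4.52% of all genes tested in cones passed.

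**Figure D5:**
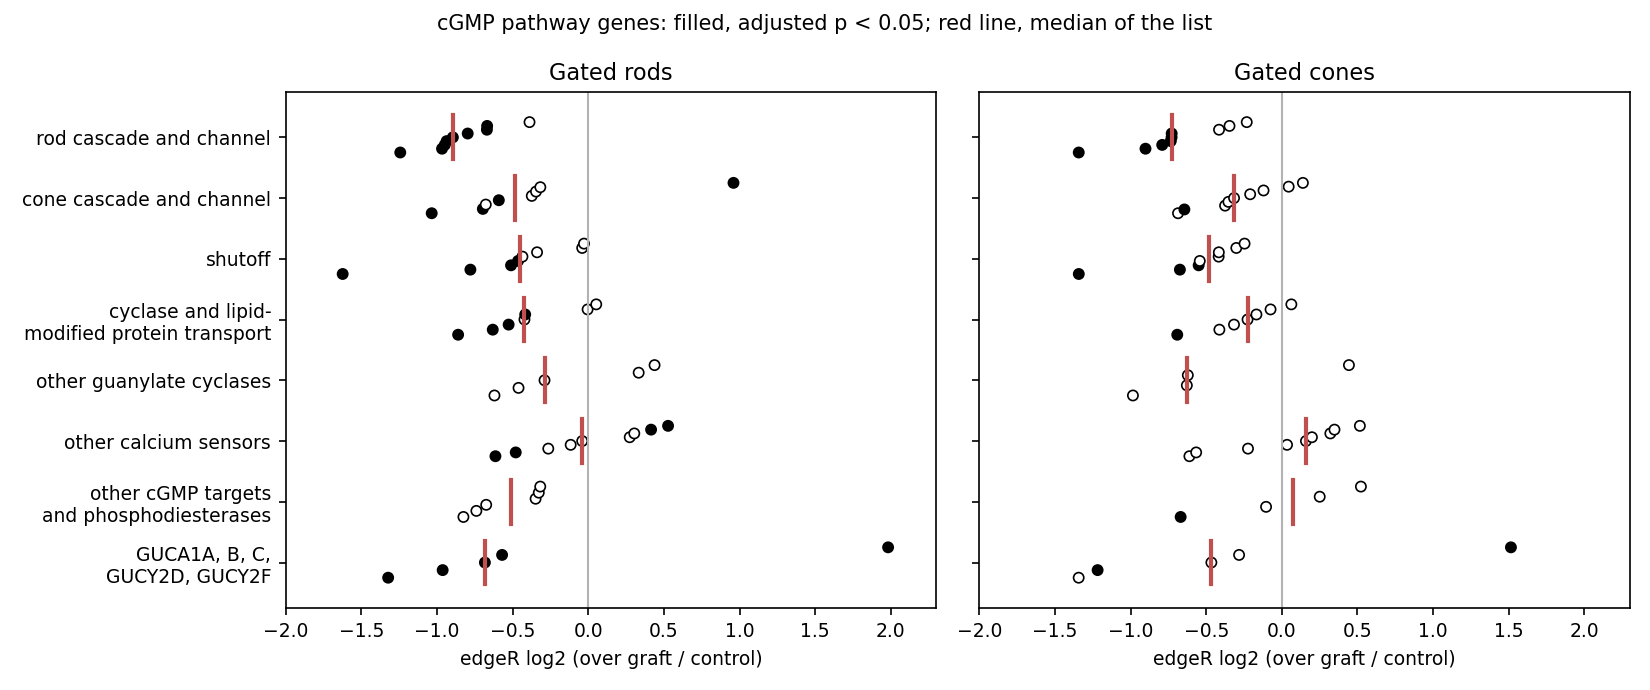
edgeR log2 change over the graft of every tested gene in 7 cGMP pathway lists and of the 5 activators and cyclases, in gated rods (left) and cones (right). Filled points have an adjusted p under 0.05 and red lines mark list medians, -0.90 for the rod cascade in rods and -0.32 for the cone cascade in cones.

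Genes whose level followed each activator or cyclase across cell classes were taken from the log2(CPM + 1) of 36 class-by-library sums, 6 classes in 6 libraries, as a description of points that share libraries and depth. GUCA1A ran closest to the uncharacterised gene LOC106557758 (Pearson r = 0.95), RCVRN (0.94) and the uncharacterised LOC119871239 (0.93). GUCA1B ran closest to rod genes that are also gate markers: SAG, rod arrestin (0.97), GNAT1 (0.96) and PDE6A, a rod phosphodiesterase subunit (0.95). For GUCA1C the closest were the cone genes GNGT2 (0.94) and CNGA3 (0.93), both gate markers, and ATP6V1C2, a proton pump subunit (0.92). GUCY2D ran closest to WDR31 (0.97), DOC2B, a calcium-binding exocytosis protein (0.96), and ABCA4, the outer segment retinoid transporter (0.95), and GUCY2F to LOC111095329 (0.88), STX19 (0.88) and LSM14A (0.87), the weakest of the 5. Among the 5 genes themselves r was highest between GUCA1A and GUCA1C (0.77) and lowest between GUCA1C and GUCY2F (0.13).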

How the data were processed

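The authors deposited unnormalised UMI counts, which came from Cell Ranger 6.0.2 (both LG5 libraries), 7.1.0 (RC726 over graft and both RC724 libraries) and 7.0.0 (RC726 control), per the file headers. Libraries were 3' v3.1, per the labels' protocols. Genome build, annotation, intron handling and the separation of human reads: not given in the sources used here. The genes, gene lists and markers were chosen with earlier results of these data known. A barcode was kept with 300 or more genes and no more than 20% of its UMIs from the 13 mitochondrial genes. The rod gate was raised to 65% and 4 markers, and THRB was left out of the cone markers, after the data were seen; OPN1MW is not a name in the files used here. No doublet caller was run. Droplets in which no class reached the gate's share failed it, but a droplet with a smaller part of another class's markers passed. Such doublets among the gated cells were not counted. An alternative left out the 6% of barcodes with the most UMIs.

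UMIs were summed per class and library (893743 to 18294772 UMIs) and tested with edgeR 4.0.16 (quasi-likelihood, filterByExpr, TMM) in R 4.3.3, with Benjamini-Hochberg adjustment over all genes tested at 0.05. The experiment was a block, since both punches of an experiment come from one retina per the series design; same-experiment deviations from the group means correlated at 0.89 to 0.95 in rods and 0.79 to 0.90 in cones. The cone and rod changes were compared in 1 fit of 12 sums that had library and class-by-experiment terms. The labels do not say that experiments used separate dogs, so p-values measure the spread between these experiments. Each fit left 2 residual degrees of freedom and borrowed spread across genes; an exact paired test could not go below 0.25. SE is the log2 change divided by the square root of F. Ratios per experiment are on CPM + 1. On simulated counts with known changes the rod and cone fits recovered 74.2% and 74.0% of changes of 1 on the log2 scale. Recovery was lower for the cone and rod difference, at 50.5%, and for the cone against rod level in control, at 40.4%. For cells thinned to 600 UMIs, shallower cells were left out (29 to 1213 rods and at most 4 cones per library). Free RNA was estimated from 10 Müller glia markers in rods and 6 rod-only markers in cones. Of 34981 gene names, 33363 match a symbol in RefSeq's table for UU_Cfam_GSD_1.0. Genes named from the lists are up to 4 per list and class past the threshold by smallest p, and 10 fixed in every case; the 3 most alike genes per member needed a mean of 20 CPM. DESeq2 1.42.0 and the other alternatives are given at the end. Counting intervals cover counting error only.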

Additional observations from a re-analysis of the deposited data

Results flagged for a closer look

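GUCY2D was the single gene of the 5 whose change over the graft differed between cones and rods by a test of the difference itself: the cone change lay above the rod change by 0.50 on the log2 scale (edgeR interaction, adjusted p = 0.0304), with the cone ratio above the rod ratio in all 3 experiments. In LG5 the cone ratio rests on 26 GUCY2D UMIs over the graft and 53 in control. The difference was 0.48 without LG5, 0.69 without RC726 and 0.088 without RC724. Median UMIs per cell differed between the punches in opposite ways, at 14084 and 11180 in RC724 cones and 1279 and 1959 in LG5 cones (over graft, control), and their part in this was not tested. With 3 libraries per group, single libraries were not screened for outlying values.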

How the results depend on the processing

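Of the alternatives tried for single genes, 54 of 60 in rods, 46 of 52 in cones, 22 of 30 for the cone and rod difference and 31 of 35 for the control levels kept direction and side of the threshold. In cones GUCY2F entered with 8 alternatives and each other gene with 11. GUCY2F was not tested in cones with the stricter gate, the cascade-free gate or free RNA subtraction. Without the block for the experiment, the pairing is lost, and these edgeR values no longer passed: GUCA1A -1.29, GUCA1B -0.58, GUCA1C 1.89, GUCY2D -0.74 and GUCY2F -0.93 in rods, GUCA1A -1.04 and GUCA1C 1.57 in cones, and cone against rod levels of 2.002 (GUCA1A) and -0.70 (GUCY2D). edgeR then called 0 genes in rods and 0 in cones (589 and 198 at an unadjusted p under 0.05; DESeq2, with the block, called 2472 and 231) and 570 between classes. Without a class-by-experiment term the GUCY2D difference was 0.45 and 0 genes passed (1165 unadjusted; DESeq2 with the term 186, GUCY2D 0.43). Leaving out 1 experiment gave ranges of -0.69 to -0.47 (GUCA1B, rods), -1.62 to -0.996 (GUCA1A, cones), -0.036 to 0.20, -1.04 to 0.13 and 0.088 to 0.69 (differences of GUCA1A, GUCA1C and GUCY2D), -0.70 to -0.62 (GUCY2D level), and counts of 1412 to 3044 in rods, 125 to 680 in cones, 342 to 1042 for the difference and 2748 to 7195 for the level, the lowest without RC724 in each case. The stricter gate gave differences of 0.41 (GUCA1A, now past the threshold) and 0.42 (GUCY2D, no longer). The cascade-free gate gave -0.55 for GUCA1A in cones and 73 genes, from few cones. Free RNA subtraction gave 0.0103 for GUCA1B in cones and 189 genes, and no filter on low counts gave -1.37 for GUCY2F in cones, past the threshold. The looser rod gate and the removal of the barcodes with the most UMIs, both chosen after seeing the data, changed no call of these genes. Beyond what each alternative removes, the cause was not tested. GUCY2F in cones rests on 2 to 32 UMIs per library, and every comparison on 3 pairs of punches.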

Other observations

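Among control cones GUCA1C differed by opsin in LG5 and RC726, with overlapping counting intervals in RC724. In cones with UMIs of the short-wavelength opsin OPN1SW and none of OPN1LW (63, 22 and 20 cells in LG5, RC726 and RC724) it stood at 249, 287 and 231 CPM, against 127, 129 and 197 CPM in cones with OPN1LW and no OPN1SW (295, 232 and 214 cells). The Poisson 95% intervals, which cover counting error only, were 167 to 357, 211 to 379.98 and 158 to 326 CPM for OPN1SW cones and 101 to 159, 117 to 142 and 181 to 215 CPM for OPN1LW cones, apart in LG5 and RC726 and overlapping in RC724. The control OPN1SW cones held a median of 1786, 5922 and 4999 UMIs, against 2014, 14710.5 and 12988.5 in control OPN1LW cones. The part of this depth difference was not tested. Over the graft the OPN1SW cones numbered 10, 22 and 17 and held 537, 528 and 552 CPM, against 764, 276 and 455 CPM in OPN1LW cones. GUCA1C was thus higher over the graft in both opsin groups of each experiment, with no test made within them. In LG5 the OPN1SW cones over the graft held 7 GUCA1C UMIs. Their interval of 216 to 1107 CPM overlaps that of control, whereas the over graft and control intervals of the other pairs were apart. Cones with both opsins or with neither were left out of this split, the latter numbering 502 over the graft and 405 in control in LG5.

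In bipolar cells of RC726 and RC724 the ratio of GUCY2F to GUCA1B UMIs was higher than in rods of the same libraries. These cells held 17.4 and 23.8 CPM over the graft, against 20.4 and 34.9 CPM in control, and 8.21 CPM over the graft against 4.90 CPM in control in LG5. For each UMI of the rod gene GUCA1B, bipolar cells held 0.798 and 1.69 GUCY2F UMIs over the graft in RC726 and RC724, against 0.719 and 1.70 in control, where rods of the same libraries held 0.220 and 0.232 over the graft, against 0.276 and 0.353 in control, and Müller glia 0.182 and 0.237 over the graft, against 0.171 and 0.255 in control. In LG5 the ratio was 0.119 over the graft and 0.0833 in control in bipolar cells, from 21 and 11 GUCY2F UMIs, and 0.0569 and 0.0684 in rods. The source of the GUCY2F UMIs in bipolar cells was not tested.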
